A study of Mus musculus with 35 samples.

Results

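The cyclin-dependent kinase (CDK) inhibitor genes Cdkn1a, Cdkn1b, Cdkn1c, Cdkn2a, Cdkn2b, Cdkn2c and Cdkn2d and the D-type cyclin genes Ccnd1, Ccnd2 and Ccnd3 were followed in mouse cardiac fibroblasts (CFs) and hearts. These 10 genes were taken by symbol from 55487 listed genes, and each symbol was found in all 4 tables of RNA-seq counts. The study knocked down IAMP, a micropeptide encoded by 4930523C07Rik, in primary CFs and mutated it in mice. The CFs were the passaged non-cardiomyocyte fraction of adult mouse hearts that stuck to collagen and was grown in serum, and they received a control siRNA (si-NC) or one of the siRNAs si-IAMP-1 and si-IAMP-2 against IAMP. Each siRNA was sequenced in 3 libraries of untreated CFs, 3 of CFs given IL17 and 3 of CFs given TGF-β, 27 in all. The labels of the IL17 cells give 24 h of siRNA and then 24 h of IL17, and the labels give no times for cells with TGF-β or without a stimulus. The heart libraries came from 4 heterozygous (Het) and 4 knockout (KO) C57BL/6 mice at 8 weeks of age under basal conditions. The KO allele was a frameshift made with a single guide RNA in a single line, and both heart groups carried it, Het mice on 1 copy. The question was whether lower cell cycle transcripts after IAMP knockdown came with higher transcripts of the inhibitors.

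D-type cyclins bind CDK4 and CDK6, and the active kinases phosphorylate the retinoblastoma protein and release E2F factors, which switch on the genes of S phase. The INK4 inhibitors (p16Ink4a from Cdkn2a, p15Ink4b from Cdkn2b, p18Ink4c from Cdkn2c and p19Ink4d from Cdkn2d) bind CDK4 and CDK6 and keep the D cyclins off. The Cip/Kip inhibitors (p21 from Cdkn1a, p27 from Cdkn1b and p57 from Cdkn1c) bind cyclin-CDK complexes more widely, above all those of CDK2. Cdkn2a also encodes p19Arf from another first exon, and counts per gene cannot separate it from p16Ink4a. TGF-β is a classical inducer of Cdkn2b and Cdkn1a in epithelial cells, and Ccnd1 is the mitogen-responsive D cyclin of fibroblasts. Several of these proteins are also set by their turnover, which RNA does not show.

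The deposited libraries held 114763924 to 119232309 estimated counts in untreated CFs, 114219738 to 118812722 in IL17 CFs, 104139670 to 108379622 in TGF-β CFs and 23497027 to 23857313 counts in hearts. Levels are given in CPM, the count of a gene relative to the scaled total of its library, and a gene passed where the Benjamini-Hochberg adjusted p of edgeR's quasi-likelihood test was at most 0.05. The targeted gene 4930523C07Rik lay between 22.0 and 25.7 CPM in untreated si-NC CFs, between 2.52 and 3.51 CPM with si-IAMP-1 and between 1.77 and 1.89 CPM with si-IAMP-2. Its log2 changes were -2.97 and -3.69 in untreated CFs, -2.85 and -3.44 with IL17 and -2.23 and -2.65 with TGF-β. In hearts it lay between 15.9 and 18.8 CPM in Het and between 15.1 and 17.3 CPM in KO, and a frameshift allele need not lower its transcript. The 12 fibroblast markers summed to 23724.9 to 33448.1 CPM in the CF libraries, and the 10 cardiomyocyte markers to 50751.2 to 54856.7 CPM in the hearts. In untreated CFs the cardiomyocyte markers summed to 90.6 to 98.2 CPM with si-NC, 42.3 to 47.2 with si-IAMP-1 and 27.9 to 32.7 with si-IAMP-2. Few genes carry this sum, since 5 of the 10 (Myh6, Myh7, Myl2, Myl3 and Nppa) were at or under the floor of 3 read pairs in every untreated library. Only 2 of the 10 were above that floor in every untreated library. The 8 mural cell markers likewise summed to 131.9 to 141.9, 78.2 to 83.6 and 62.5 to 73.7 CPM, and the fibroblast markers to 24046.3 to 24395.3, 32313.1 to 33448.1 and 24995.8 to 25719.7 CPM. The 10 endothelial markers summed to 61.9 to 149.0 CPM and the 10 macrophage markers to 60.9 to 170.1 CPM over all CF libraries. In untreated CFs the macrophage sum was higher with si-IAMP-2 only, at 78.4 to 82.0 CPM. It was 61.4 to 65.5 CPM with si-NC and 60.9 to 64.8 with si-IAMP-1. With IL17 it was 61.6 to 62.8 CPM with si-NC, 68.9 to 73.8 with si-IAMP-1 and 80.2 to 89.4 with si-IAMP-2. With TGF-β it was lower after knockdown, at 161.9 to 170.1 CPM with si-NC, 130.6 to 146.2 with si-IAMP-1 and 144.8 to 151.3 with si-IAMP-2. The part of these shifts in the results was not tested. Nothing in the labels says that the libraries of a group came from separate cultures, so the p-values measure the spread between these libraries. Fewer cells of a kind and less RNA per cell cannot be told apart in bulk RNA.

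Per kilobase of exon, untreated si-NC CFs were led by Ccnd1, at 240 CPM per kb, followed by Cdkn1a at 107 and Ccnd2 at 66.0. Ccnd3 followed at 20.6 CPM per kb, and Cdkn1b, Cdkn2c, Cdkn2a and Cdkn2b lay next to each other at 14.9, 14.2, 13.9 and 13.9. The libraries of these last 4 genes overlapped between neighbours, so their order is not resolved. Cdkn2d came to 10.96 CPM per kb and Cdkn1c to 0.53. Cdkn1a was the highest of the 10 genes per kilobase in every knockdown group, in every TGF-β group and in both heart groups. The top place was the same when the longest transcript of each gene replaced the sum of its exons, while places in the middle of the order moved.

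**Figure D1:**
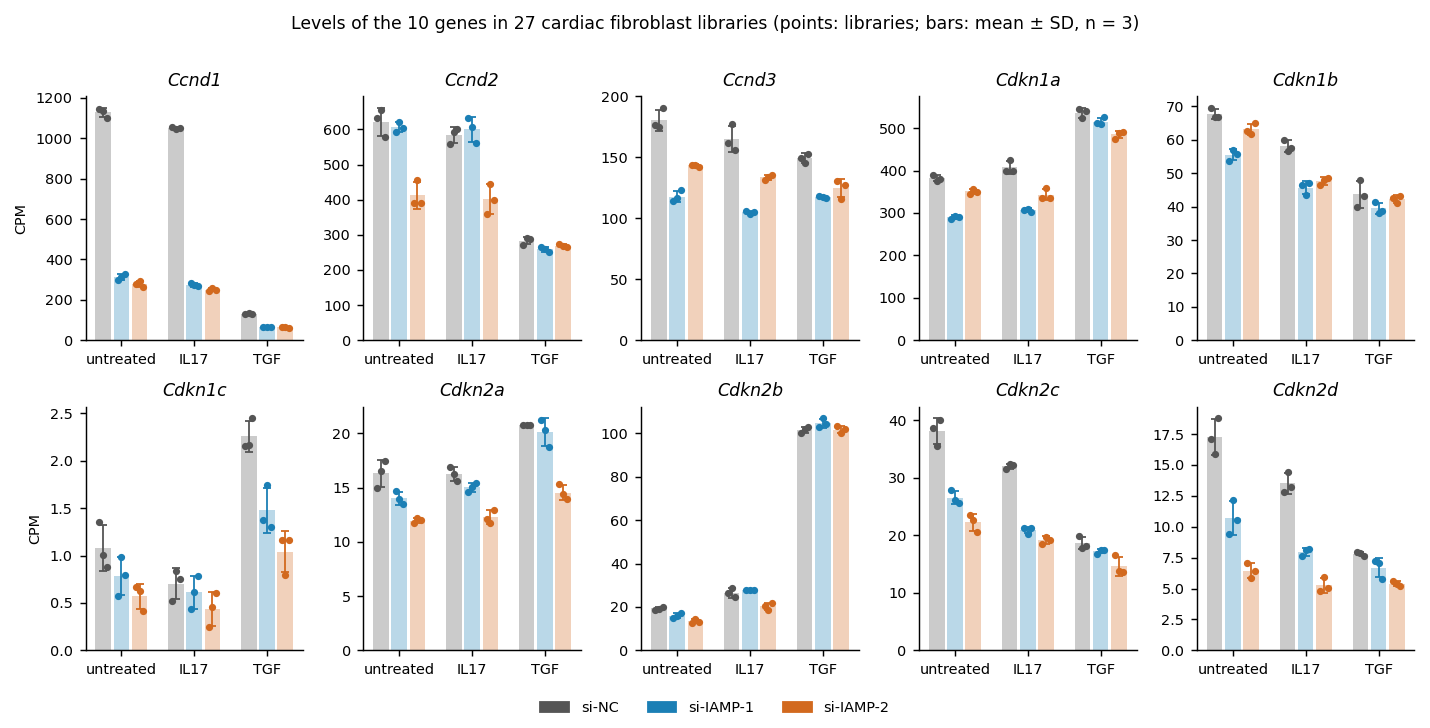
Levels of the 10 genes in the 27 CF libraries (CPM, axes from 0), with 1 point per library and bars for the mean ± SD (n = 3), by siRNA and stimulus. Ccnd1 drops from 1103 to 1144 CPM with si-NC to 262 to 327 CPM with either siRNA in untreated CFs, and Cdkn2b stands highest in the TGF-β libraries.

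Knockdown of IAMP lowered most of the 10 genes in untreated CFs, and none rose. With si-IAMP-1, 8 of 10 passed, all lower, while 39.9% of all tested genes passed and 20.4% passed as lower. With si-IAMP-2, all 10 passed as lower, against 49.3% of all genes passing and 25% passing as lower. In IL17 CFs, 6 of 10 fell with si-IAMP-1 (42.3% of all genes passed, 21.9% lower) and 9 of 10 with si-IAMP-2 (50.6% passed, 25.6% lower). In TGF-β CFs, 4 of 10 fell with si-IAMP-1 (23.1% of all genes passed, 11.4% lower) and 7 of 10 with si-IAMP-2 (29.9% passed, 14.8% lower). The shares of all genes that passed as higher were 19.5% and 24.4% in untreated CFs, 20.3% and 25% with IL17 and 11.7% and 15.1% with TGF-β, for si-IAMP-1 and si-IAMP-2 in that order, and 0 members did. A size threshold was added, a change of at least 2-fold in untreated CFs and of at least 1.5-fold elsewhere. In untreated CFs it left Ccnd1 with si-IAMP-1 (4.76% of all genes) and Ccnd1 and Cdkn2d with si-IAMP-2 (10.7%). With IL17 it left Ccnd1, Ccnd3, Cdkn2c and Cdkn2d with si-IAMP-1 (13.5%) and Ccnd1, Cdkn2c and Cdkn2d with si-IAMP-2 (21.7%). With TGF-β it left Ccnd1 and Cdkn1c with si-IAMP-1 (4.36%) and with si-IAMP-2 (7.51%).

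Counted over the 7 inhibitors and the 6 comparisons of an siRNA with si-NC, 29 of 42 tests were lower, 13 did not pass and 0 were higher. The largest of the 42 log2 changes was 0.05, for Cdkn2b in IL17 CFs with si-IAMP-1, and 3 of the 42 were above 0, none of them at an unadjusted p under 0.05. The highest upper limit of the 95% intervals was 0.55, for Cdkn1c in IL17 CFs with si-IAMP-1, and that interval includes changes of either sign. For the 3 D cyclins, 15 of 18 tests were lower, 3 did not pass and 0 were higher. In these 6 comparisons 11.4% to 25.6% of all genes passed as lower and 11.7% to 25% as higher. The pooled tests are not independent, since both siRNAs of a stimulus share the same si-NC libraries and the same genes recur. The median log2 change of the inhibitors was -0.40 and -0.54 in untreated CFs for si-IAMP-1 and si-IAMP-2, and -0.36 and -0.43 with IL17. It was -0.12 and -0.35 with TGF-β, and the median over all tested genes lay between -0.02 and 0.03 in these comparisons.

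**Figure D2:**
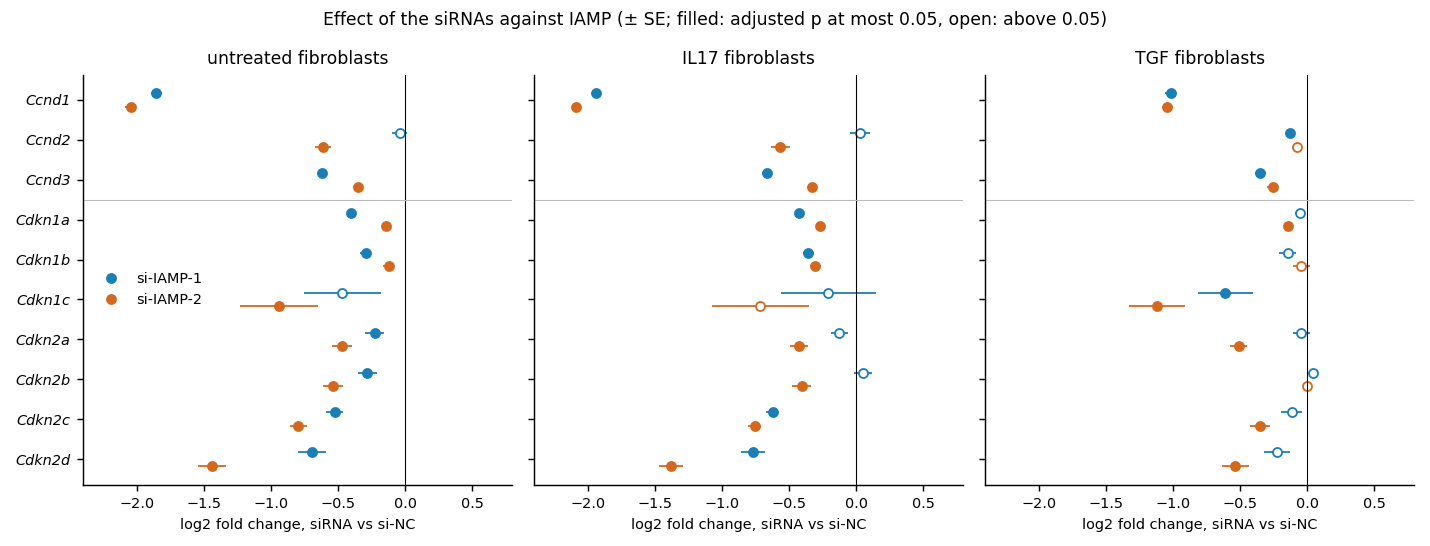
Log2 change of each of the 10 genes with si-IAMP-1 and si-IAMP-2 against si-NC in untreated, IL17 and TGF-β CFs. Bars are ± SE from edgeR, filled points passed (adjusted p at most 0.05) and open points did not. Ccnd1 lies farthest below 0 in untreated and IL17 CFs, between -1.85 and -2.09, and no gene that passed lies above 0.

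Ccnd1, the D cyclin that answers to mitogens, fell most in untreated and IL17 CFs. The gene (ENSMUSG00000070348) lies at chr7:144929931-144939925 on the minus strand of GRCm38. Untreated si-NC libraries held 1144, 1137 and 1103 CPM, si-IAMP-1 libraries 299, 314 and 327, and si-IAMP-2 libraries 276, 293 and 262. Every knockdown library was far below every control, and the siRNA groups overlapped nowhere with si-NC. The log2 change was -1.85 (SE 0.0393, 3.61-fold lower, adjusted p = 7.3e-15) with si-IAMP-1 and -2.05 (SE 0.0395, 4.13-fold lower, adjusted p = 8.16e-16) with si-IAMP-2. IL17 CFs held 1056, 1044 and 1053 CPM with si-NC, 286, 275 and 266 with si-IAMP-1 and 245, 260 and 247 with si-IAMP-2. The drop there was 3.84-fold (log2 -1.94, SE 0.0299) and 4.25-fold (log2 -2.09, SE 0.03). TGF-β CFs started far lower, at 128, 136 and 131 CPM with si-NC, and held 64.6, 66.0 and 64.7 with si-IAMP-1 and 64.1, 66.6 and 61.1 with si-IAMP-2. Ccnd1 fell there by 2.02-fold (log2 -1.02, SE 0.0403) and 2.06-fold (log2 -1.04, SE 0.0404), again with no overlap between control and knockdown. Of the exon bases of Ccnd1, 23.36% are shared with LTO1 on the opposite strand, and whether the counting used strand was not given in the sources used here. LTO1 itself measured only 19.4 to 29.3 CPM in the CF libraries.

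Ccnd2 and Ccnd3, the other D cyclins, moved less, and they split the siRNAs. In untreated CFs, Ccnd2 (ENSMUSG00000000184) measured 631, 655 and 578 CPM with si-NC, 593, 622 and 605 with si-IAMP-1, and 390, 456 and 390 with si-IAMP-2. The si-IAMP-1 libraries lay inside the control range, and those of si-IAMP-2 were all below it. Its log2 change was -0.04 (95% interval -0.17 to 0.09) with si-IAMP-1 and -0.61 (adjusted p = 2.49e-06) with si-IAMP-2. With IL17, Ccnd2 measured 559, 592 and 601 CPM with si-NC, 631, 607 and 561 with si-IAMP-1, and 359, 444 and 400 with si-IAMP-2. There the si-IAMP-1 libraries overlapped the controls and reached above them, and those of si-IAMP-2 were all below. The log2 changes were 0.03 and -0.56, only the latter passing. With TGF-β, Ccnd2 measured 272, 292 and 287, then 266, 259 and 252, then 274, 268 and 266 CPM, and here it was si-IAMP-1 that passed (log2 -0.13, adjusted p = 0.0117) and not si-IAMP-2 (log2 -0.07, adjusted p = 0.134). The si-IAMP-1 call ended without its replicate 3 (adjusted p = 0.0703) or si-NC replicate 2 (adjusted p = 0.0601), and si-IAMP-2 passed without si-NC replicate 1 (adjusted p = 0.0397). Ccnd3 (ENSMUSG00000034165) fell in all 6 comparisons. It measured 176, 175 and 191 CPM in untreated si-NC CFs, 114, 116 and 123 with si-IAMP-1, and 144, 144 and 142 with si-IAMP-2. The si-IAMP-1 libraries were the lowest and those of si-IAMP-2 stood between them and the controls, with log2 changes of -0.62 and -0.35. With IL17 the levels were 162, 177 and 156, then 106, 104 and 105, then 131, 134 and 136 CPM, and the log2 changes were -0.67 and -0.33. With TGF-β the levels were 150, 145 and 153, then 118, 117 and 116, then 131, 116 and 128 CPM, and the log2 changes were -0.35 and -0.26. Ccnd3 shares 4.11% of its exon bases with Bysl on the opposite strand, which measured 36.1 to 61.3 CPM. Bysl was higher after knockdown, averaging 36.8 CPM with si-NC, 56.8 with si-IAMP-1 and 57.5 with si-IAMP-2 in untreated CFs. It averaged 37.3, 59.3 and 59.1 CPM with IL17 and 45.3, 51.2 and 56.4 with TGF-β. Its part in the Ccnd3 counts was not tested.

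Cdkn1a, which encodes p21 and is the most abundant inhibitor, fell in 5 of 6 comparisons. The gene (ENSMUSG00000023067) lies at chr17:29090976-29100727 on the plus strand. Untreated CFs held 389, 375 and 381 CPM with si-NC, 285, 293 and 291 with si-IAMP-1, and 345, 357 and 350 with si-IAMP-2. All knockdown libraries were below all controls, and those of si-IAMP-1 were lowest (log2 -0.40, SE 0.0277, adjusted p = 4.97e-09, against log2 -0.14, SE 0.0277, for si-IAMP-2). IL17 CFs held 399, 425 and 400 CPM with si-NC, 307, 310 and 302 with si-IAMP-1, and 335, 358 and 336 with si-IAMP-2 (log2 -0.42 and -0.27). TGF-β CFs held 545, 523 and 541 CPM with si-NC, 511, 510 and 526 with si-IAMP-1, and 475, 489 and 492 with si-IAMP-2. There the si-IAMP-1 group touched the controls (log2 -0.06, adjusted p = 0.242), while si-IAMP-2 was below them (log2 -0.14, adjusted p = 0.00205). Cdkn1a made up 55.6% to 69.0% of the summed inhibitor level per kilobase in every CF library. This share used the sum of the exons of each gene, and it depends on the length chosen.

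Cdkn1b, which encodes p27, fell with both siRNAs in untreated and IL17 CFs and with neither in TGF-β CFs. It measured 69.6, 66.8 and 66.9 CPM in untreated si-NC CFs, 53.8, 57.1 and 55.8 with si-IAMP-1, and 62.7, 61.7 and 64.9 with si-IAMP-2, and fell with both (log2 -0.29 and -0.12), the si-IAMP-2 call ending without si-IAMP-2 replicate 2 (adjusted p = 0.0862) or si-NC replicate 1 (adjusted p = 0.0646). With IL17 it measured 60.0, 56.5 and 57.6, then 46.5, 43.5 and 47.0, then 46.3, 47.9 and 48.7 CPM (log2 -0.36 and -0.31, both passing). With TGF-β the libraries lay at 39.9, 47.9 and 43.2, then 41.5, 38.2 and 38.7, then 42.5, 41.1 and 43.3 CPM. These groups overlapped, and neither siRNA passed (log2 -0.14 and -0.04), although si-IAMP-1 did without si-NC replicate 1 (adjusted p = 0.0274). Cdkn1c, which encodes p57 and is imprinted, was near the detection limit of the CF libraries, at 28 to 270 estimated counts against 18 that 3 read pairs would give. Untreated si-NC CFs held 1.36, 1.00 and 0.88 CPM, si-IAMP-1 0.57, 0.98 and 0.80, and si-IAMP-2 0.67, 0.63 and 0.42. The si-IAMP-2 libraries were below the controls and passed (log2 -0.94, SE 0.29, adjusted p = 0.0123), and si-IAMP-1 did not (log2 -0.47, SE 0.286). The si-IAMP-2 call ended without si-IAMP-2 replicate 3 (adjusted p = 0.062) or si-NC replicate 1 (adjusted p = 0.074). In IL17 CFs all 3 groups overlapped and neither siRNA passed, with log2 changes of -0.21 and -0.71, although si-IAMP-2 did without its replicate 3 (log2 -1.04, adjusted p = 0.0483). TGF-β CFs held 2.15, 2.17 and 2.45 CPM with si-NC, 1.38, 1.75 and 1.30 with si-IAMP-1, and 1.17, 0.79 and 1.16 with si-IAMP-2. Both siRNA groups lay below the controls, with log2 changes of -0.61 (SE 0.205, adjusted p = 0.0398) and -1.12 (SE 0.209, adjusted p = 0.000502). The si-IAMP-1 call was lost when low genes were left unfiltered (adjusted p = 0.0604), with the replicate number as a block (adjusted p = 0.0638) and without any of 5 libraries, si-IAMP-1 replicates 1 and 3 and each si-NC library (adjusted p of up to 0.147).

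Leaving aside the low Cdkn1c, the INK4 genes Cdkn2c and Cdkn2d fell most among the inhibitors in untreated and IL17 CFs. Cdkn2d (ENSMUSG00000096472, p19Ink4d) measured 17.1, 15.9 and 18.8 CPM in untreated si-NC CFs, 9.41, 12.1 and 10.6 with si-IAMP-1, and 7.07, 5.84 and 6.43 with si-IAMP-2. The 3 groups were fully separate, in the order si-NC, si-IAMP-1, si-IAMP-2, and the log2 changes were -0.69 (SE 0.101, 1.62-fold lower) and -1.44 (SE 0.104, 2.71-fold lower, adjusted p = 3.86e-09). With IL17 the same order held, at 12.8, 14.5 and 13.2, then 7.61, 8.09 and 8.23, then 4.78, 5.95 and 5.06 CPM (log2 -0.77 and -1.38). With TGF-β it measured 7.92, 7.87 and 7.67, then 7.23, 7.03 and 5.79, then 5.58, 5.39 and 5.20 CPM, and only si-IAMP-2 passed (log2 -0.23, adjusted p = 0.122, and -0.54, adjusted p = 0.00049). Cdkn2c (p18Ink4c) measured 38.6, 35.5 and 40.0 CPM in untreated si-NC CFs, 27.9, 26.1 and 25.6 with si-IAMP-1, and 23.5, 22.6 and 20.5 with si-IAMP-2 (log2 -0.53 and -0.80). Its 3 groups were also separate, as they were with IL17, at 31.5, 32.3 and 32.1, then 21.2, 20.3 and 21.2, then 18.5, 19.8 and 19.2 CPM (log2 -0.62 and -0.76). With TGF-β the levels were 19.9, 17.9 and 18.2, then 16.8, 17.4 and 17.4, then 16.5, 13.8 and 13.6 CPM, and only si-IAMP-2 passed (log2 -0.12 and -0.35).

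The neighbouring INK4 genes Cdkn2a and Cdkn2b lie 11645 bases apart on chromosome 4. Cdkn2a measured 14.99, 16.5 and 17.5 CPM in untreated si-NC CFs, 14.7, 13.9 and 13.5 with si-IAMP-1, and 11.7, 12.2 and 11.98 with si-IAMP-2. Both siRNA groups were below the controls (log2 -0.23, adjusted p = 0.0174, and -0.47, adjusted p = 2.93e-05), and the si-IAMP-1 call ended without si-IAMP-1 replicate 3 (adjusted p = 0.0768) or si-NC replicate 3 (adjusted p = 0.0887). With IL17 the levels were 16.9, 16.2 and 15.6, then 14.6, 15.02 and 15.5, then 12.1, 11.8 and 12.97 CPM, and only si-IAMP-2 passed (log2 -0.12 and -0.43). With TGF-β they were 20.7, 20.7 and 20.8, then 21.3, 20.3 and 18.7, then 15.3, 14.4 and 13.9 CPM, and again only si-IAMP-2 passed (log2 -0.04 and -0.51). Cdkn2b (ENSMUSG00000073802, p15Ink4b) measured 18.7, 19.3 and 20.04 CPM in untreated si-NC CFs, 14.8, 15.9 and 17.3 with si-IAMP-1, and 12.6, 14.6 and 13.3 with si-IAMP-2 (log2 -0.28, adjusted p = 0.00483, and -0.54, adjusted p = 7.86e-06). The groups did not overlap. With IL17 it measured 26.5, 28.7 and 24.4, then 27.6, 27.7 and 27.6, then 20.4, 18.7 and 21.8 CPM, so that si-IAMP-1 lay within the controls (log2 0.05, 95% interval -0.09 to 0.19) and si-IAMP-2 below them (log2 -0.41). With TGF-β all 9 libraries lay between 100 and 107 CPM, and neither siRNA passed (log2 0.04 and 0.00).

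The promoters of Cdkn2b and Cdkn2d are shown because Cdkn2b was the member highest with TGF-β relative to untreated CFs and Cdkn2d the inhibitor that fell most with the siRNAs in untreated CFs. The sequences are RefSeq promoter windows of GRCm38.p6, from 250 bases before the start to 50 bases after it. Windows matched 7 of the 10 genes, and the rest were Cdkn1c, Ccnd1 and Ccnd2. Capitals mark the motifs found on either strand, the CRE (TGACGTCA) and the GC box (GGGCGG, or CCGCCC on the other strand), which do not overlap here.
Cdkn2b, chr4:89310983-89311282, minus strand: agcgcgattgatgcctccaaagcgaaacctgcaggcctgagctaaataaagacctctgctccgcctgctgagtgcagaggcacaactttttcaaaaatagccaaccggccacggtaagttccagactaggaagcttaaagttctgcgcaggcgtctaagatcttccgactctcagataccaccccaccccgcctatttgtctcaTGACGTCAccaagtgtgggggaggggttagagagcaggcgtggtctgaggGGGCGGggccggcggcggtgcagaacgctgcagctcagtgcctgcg
Cdkn2d, chr9:21291160-21291459, minus strand: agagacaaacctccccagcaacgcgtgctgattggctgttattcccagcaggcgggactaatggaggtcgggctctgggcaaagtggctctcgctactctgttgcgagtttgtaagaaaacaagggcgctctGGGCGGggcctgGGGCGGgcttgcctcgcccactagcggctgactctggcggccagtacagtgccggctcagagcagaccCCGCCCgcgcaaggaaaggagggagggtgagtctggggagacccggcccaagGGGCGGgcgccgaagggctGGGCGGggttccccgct
The Cdkn2b window holds 1 CRE, 46 bases before the start, a motif that 1.79% of 32851 promoter windows hold. It also holds 1 GC box, which 35.658% of windows hold, and 2 copies of the short SMAD element CAGAC, which 49.594% hold. The Cdkn2d window holds 5 GC boxes, 2 copies of CAGAC and no CRE. These letter matches describe the windows and say nothing of binding.

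Where the siRNAs differed from each other, the direction depended on the gene. In untreated CFs, 9 of 10 genes passed between si-IAMP-2 and si-IAMP-1, while 45.5% of all genes did (22.7% higher and 22.8% lower). Cdkn1a (log2 0.26), Cdkn1b (0.17) and Ccnd3 (0.27) were higher with si-IAMP-2, while Cdkn2a, Cdkn2b, Cdkn2c, Cdkn2d, Ccnd1 and Ccnd2 were lower, by -0.24, -0.26, -0.27, -0.74, -0.19 and -0.57 on the log2 scale. In IL17 CFs, 8 of 10 passed (46.2% of all genes, 23.1% in each direction), with Cdkn1a (0.15) and Ccnd3 (0.34) higher. In TGF-β CFs, 3 of 10 passed (24% of all genes, 12% in each direction), and these were the INK4 genes Cdkn2a (-0.47), Cdkn2c (-0.23) and Cdkn2d (-0.31), all lower with si-IAMP-2. In untreated CFs the Cdkn2a call ended without si-IAMP-1 replicate 1 (adjusted p = 0.0512) and that of Cdkn2b without si-IAMP-1 replicate 3 (adjusted p = 0.0522). Cdkn2c with IL17 (adjusted p of up to 0.124) and Cdkn2c and Cdkn2d with TGF-β (up to 0.148 and 0.13) each lost their call without any of 5 libraries. The reduction of IAMP was itself deeper with si-IAMP-2, and its part in these differences was not tested.

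Measured as the sum over the genes of a family, both the D cyclins and the inhibitors were lower after knockdown, and the D cyclins by more. In untreated CFs the 3 D cyclins summed to 326 ± 7.7 CPM per kb with si-NC (SD, n = 3), 144 ± 4.42 with si-IAMP-1 and 119 ± 7.25 with si-IAMP-2. The 7 inhibitors summed to 176 ± 3.48, 134 ± 2.28 and 145 ± 1.94 CPM per kb. The ratio of D cyclins to inhibitors thus went from 1.86 ± 0.0749 to 1.08 ± 0.0199 and 0.819 ± 0.0403, and no library of a knockdown group reached a control. In IL17 CFs the D cyclins went from 304 to 134 and 111 CPM per kb, the inhibitors from 181 to 142 and 143, and the ratio from 1.68 to 0.944 and 0.778. In TGF-β CFs the D cyclins went from 75.1 to 54.7 and 56.4, the inhibitors from 264 to 258 and 241, and the ratio from 0.284 to 0.212 and 0.234. Ccnd1 alone accounted for 73.5% of the D cyclin sum in untreated si-NC CFs, and for 46.1% and 49.5% after knockdown. These sums, ratios and shares used the sum of the exons of each gene, and were not computed with the longest transcripts.

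**Figure D3:**
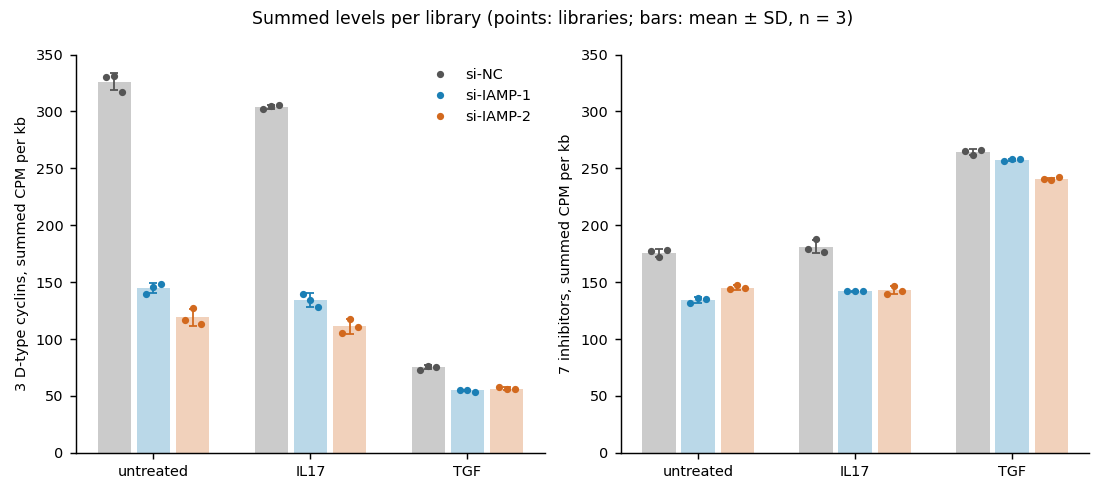
Summed level of the 3 D cyclins (left) and of the 7 inhibitors (right) in CPM per kb of exon, by siRNA and stimulus, with points for CF libraries and bars for the mean ± SD (n = 3). In untreated CFs the D cyclins lie between 317 and 331 with si-NC and between 113 and 148 with the siRNAs, and in TGF-β CFs the inhibitors (240 to 266) exceed the D cyclins (53.8 to 76.5) in every library.

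TGF-β CFs and untreated CFs, both with si-NC, differed in all 10 genes, 4 being higher and 6 lower, while 57.3% of all genes passed, 29.3% higher and 28% lower. Cdkn2b stood out, going from 18.7 to 20.04 CPM in untreated libraries to 100 to 103 with TGF-β (5.24-fold higher, log2 2.39, SE 0.0533, adjusted p = 2.81e-21). The other INK4 genes did not follow it together, since Cdkn2a was higher by 0.34 and Cdkn2c and Cdkn2d were lower, with log2 differences of -1.03 and -1.14. Cdkn1a was 0.49 higher and Cdkn1c 1.06 higher (SE 0.252), while Cdkn1b differed by -0.64. Ccnd1 was 8.59-fold lower (log2 -3.10, SE 0.0435, adjusted p = 7.82e-25), Ccnd2 differed by -1.13 and Ccnd3 by -0.28. The groups of 3 libraries did not overlap for any of the 10 genes, and how many of all genes share this was not counted. The TGF-β libraries stand in a separate table from the untreated ones, so the stimulus and the table cannot be told apart, and the marker sums differed as well. With TGF-β and si-NC the endothelial (135.8 to 139.0 CPM) and macrophage (161.9 to 170.1 CPM) sums were higher than in untreated si-NC CFs (75.6 to 81.2 and 61.4 to 65.5 CPM). The cardiomyocyte (5.42 to 6.07 CPM, against 90.6 to 98.2) and mural (97.2 to 100.6 CPM, against 131.9 to 141.9) sums were lower, and the part of these shifts was not tested. Few genes carry the cardiomyocyte sums, since 5 of the 10 markers (Myh6, Myh7, Actc1, Myl3 and Pln) were at or under the floor of 3 read pairs in every TGF-β library. Only 1 of the 10 was above that floor in every TGF-β library.

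IL17 CFs with si-NC differed from untreated si-NC CFs in 7 of 10 genes, and 13.6% of all genes passed (6.61% higher and 6.96% lower). Cdkn2b was 0.45 higher on the log2 scale (adjusted p = 2.68e-05) and Cdkn1a 0.09 higher. Cdkn1b, Cdkn2c, Cdkn2d, Ccnd1 and Ccnd3 were lower, by -0.23, -0.25, -0.36, -0.10 and -0.13. All of these are below 1.5-fold, and the Ccnd1 call was lost under 4 of 7 other settings, among them RLE scaling and no filter. The Cdkn1a call was lost under no filter (adjusted p = 0.0528) and the replicate block (adjusted p = 0.218), the Ccnd3 call under the block (adjusted p = 0.157), and Cdkn1c passed under 1 setting (adjusted p = 0.0391). Without single libraries the calls of Ccnd1, Cdkn1a, Ccnd3 and Cdkn2d were lost too, with adjusted p of up to 0.151, 0.219, 0.182 and 0.0866, untreated si-NC replicate 3 and IL17 si-NC replicate 1 among them. These tables too were deposited separately, so IL17 and the table cannot be told apart. The difference between the IL17 and the untreated siRNA effects was tested as an interaction, and 0 of 10 genes passed for either siRNA, while 2.13% and 1.89% of all genes did. At an unadjusted p under 0.05 there were 1, Cdkn2b with si-IAMP-1, and 2, Cdkn1a and Cdkn1b with si-IAMP-2, and DESeq2 called these same genes after adjustment.

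With TGF-β the siRNA effects on these genes differed from those in untreated CFs, and every interaction that passed was above 0, that is, less of a fall. For si-IAMP-1, 6 of 10 passed (19.6% of all genes, 9.19% above 0 and 10.4% below), with Ccnd1 at 0.83 (SE 0.0574) and Cdkn1a, Cdkn2b, Cdkn2c, Cdkn2d and Ccnd3 between 0.27 and 0.46. For si-IAMP-2, 5 of 10 passed (30.2% of all genes, 14.6% above 0 and 15.6% below), with Ccnd1 at 0.98 (SE 0.0575), Cdkn2d at 0.88 (SE 0.144), and Cdkn2b, Cdkn2c and Ccnd2 between 0.43 and 0.52. Ccnd1 thus fell 3.61-fold and 4.13-fold without TGF-β and 2.02-fold and 2.06-fold with it, from a control level that was already 8.59-fold lower. The Cdkn2d interaction with si-IAMP-1 did not pass without untreated si-IAMP-1 replicate 1, untreated si-NC replicate 3 or TGF-β si-IAMP-1 replicate 1 or 2 (adjusted p of up to 0.0774). These comparisons share the untreated and TGF-β libraries of the siRNA tests above and are limited by the same separation of tables. The reduction of IAMP was also shallower with TGF-β. There 4930523C07Rik averaged 20.4 CPM with si-NC, 4.33 with si-IAMP-1 and 3.26 with si-IAMP-2, against 23.5, 3.01 and 1.84 CPM in untreated CFs. The part of this in the interactions was not tested.

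The transcripts of the cell cycle itself were lower in the same libraries. Of 26 mitosis genes, 26 and 26 fell in untreated CFs with si-IAMP-1 and si-IAMP-2 (median log2 -0.74 and -1.64), and 26 and 26 with IL17 (-0.74 and -1.66). With TGF-β, 25 and 26 fell (-0.68 and -1.13). Of 28 S phase genes, 26 and 27 fell in untreated CFs (median -0.63 and -1.13), 25 and 27 with IL17 (-0.63 and -1.18) and 12 and 21 with TGF-β (-0.24 and -0.49), and 1 rose, with IL17 and si-IAMP-2. Of all genes, 20.4% and 25% passed as lower in untreated CFs, 21.9% and 25.6% with IL17 and 11.4% and 14.8% with TGF-β. Mki67, a marker of cycling cells, measured 262 to 290 CPM in untreated si-NC CFs, 148 to 172 with si-IAMP-1 and 66.0 to 68.6 with si-IAMP-2 (log2 -0.80 and -2.05). Ccna2, the S and G2 cyclin, changed by -1.16 and -1.71, and Ccnb2, a mitotic cyclin, by -1.12 and -1.81. With TGF-β, Plk1, a mitotic kinase, was the mitosis gene that fell most (-1.09 and -1.47). TGF-β si-NC CFs already stood lower than untreated ones, with 27 of 28 S phase genes and 25 of 26 mitosis genes lower (medians -1.43 and -1.89). In that comparison 28% of all genes passed as lower. In each of the 6 comparisons, then, at least 25 of 26 mitosis genes were lower and 0 of 7 inhibitors were higher.

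**Figure D4:**
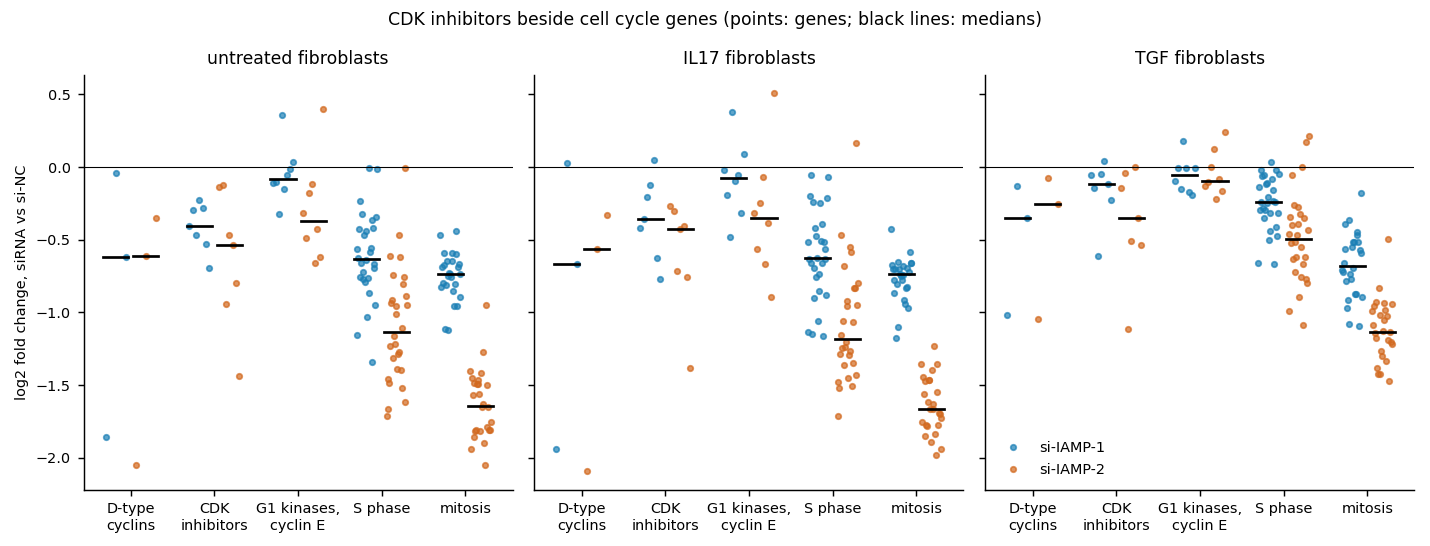
Log2 change of the 3 D cyclins, the 7 inhibitors, the G1 kinase and cyclin E genes, the S phase genes and the mitosis genes with each siRNA against si-NC in untreated, IL17 and TGF-β CFs, with 1 point per gene and black lines for medians. The inhibitor medians lie between -0.12 and -0.54 and the mitosis medians between -0.68 and -1.66.

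Around the D cyclins, the G1 kinases and cyclin E genes moved less uniformly. Of these 8 genes, 1 rose and 2 fell in untreated CFs with si-IAMP-1, where 39.9% of all genes passed, and 1 rose and 6 fell with si-IAMP-2, where 49.3% did. The same counts were seen with IL17 (42.3% and 50.6% of all genes), and with TGF-β 0 rose and 2 fell (23.1%), then 1 rose and 3 fell (29.9%). Cdk2, the partner of cyclins E and A, fell by 0.15 and 0.66 on the log2 scale in untreated CFs, and Cdk6, a partner of the D cyclins, by 0.31 and 0.89 with IL17 and by 0.19 and 0.16 with TGF-β. The Cdk2 call with si-IAMP-1 ended under no filter (adjusted p = 0.0503) and without any of the 3 si-IAMP-1 libraries or si-NC replicate 1 or 2 (adjusted p of up to 0.0909). With TGF-β the Cdk6 calls ended without si-IAMP-1 replicate 3 or si-NC replicate 1 for si-IAMP-1 (adjusted p of up to 0.071), and without si-IAMP-2 replicate 1 or 3 or si-NC replicate 1 or 3 for si-IAMP-2 (adjusted p of up to 0.133). Of 17 pocket protein and E2F genes, 12 fell and 0 rose with si-IAMP-1 in untreated CFs (20.4% and 19.5% of all genes), and 9 fell and 4 rose with si-IAMP-2 (25% and 24.4%). The activating factor E2f2 fell most (-1.27 and -1.62), and in TGF-β CFs it was the repressor E2f7 (-0.51 and -1.03). The E2f7 value with si-IAMP-1 was -0.30 without si-IAMP-1 replicate 1 (adjusted p = 0.104), and the call also ended without si-NC replicate 1 or 3 (adjusted p of up to 0.124) and with those groups fitted alone (adjusted p = 0.0563). Rb1, the retinoblastoma gene, split the siRNAs, at -0.51 with si-IAMP-1 and 0.29 with si-IAMP-2. E2f1 passed in none of the 6 comparisons and measured 18.05 to 27.4 CPM.

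Among 24 p53 targets other than Cdkn1a, 7 rose and 12 fell with si-IAMP-1 in untreated CFs (19.5% and 20.4% of all genes) and 5 rose and 15 fell with si-IAMP-2 (24.4% and 25%). With IL17, 6 rose and 15 fell (20.3% and 21.9% of all genes) and then 4 and 15 (25% and 25.6%). With TGF-β, 6 rose and 8 fell (11.7% and 11.4%) and then 3 and 15 (15.1% and 14.8%). Trp53inp1, a p53-induced protein of stress and autophagy, fell from 171 to 187 CPM with si-NC to 46.0 to 48.8 and 49.7 to 53.8 CPM (log2 -1.93 and -1.82) in untreated CFs. Gadd45a, a stress gene of the DNA damage response, rose instead, from 8.42 to 8.91 CPM to 10.7 to 12.1 and 15.3 to 15.5 (0.37 and 0.80). Mdm2, which degrades p53 and is its target, rose slightly with both siRNAs in untreated CFs (0.17 and 0.24), and Fas, the death receptor, was the target that rose most with IL17 (0.83 and 0.58). Trp53 itself, at 91.7 to 102 CPM, did not pass in untreated CFs, and it fell slightly with si-IAMP-1 in IL17 CFs (-0.12) and in TGF-β CFs (-0.13). The TGF-β call of Trp53 ended without si-IAMP-1 replicate 1 or si-NC replicate 1 or 3 (adjusted p of up to 0.0903). Perp, a desmosomal p53 target, fell most with TGF-β (-0.66 and -0.76).

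Of 17 genes that degrade or stabilise the inhibitors and D cyclins, 3 rose and 9 fell with si-IAMP-1 in untreated CFs (19.5% and 20.4% of all genes), and 7 rose and 5 fell with si-IAMP-2 (24.4% and 25%). Skp2, the ubiquitin ligase subunit that marks p27 and p21 for destruction, fell from 20.02 to 21.7 CPM to 13.9 to 15.6 and 6.49 to 8.30 CPM (log2 -0.53 and -1.54). Fbxw7, the ligase subunit for cyclin E, rose (0.25 and 0.53), Ambra1, the receptor through which D cyclins are degraded, rose with IL17 (0.14 and 0.46), and Cul1, a ligase scaffold, rose with TGF-β (0.13 and 0.32). Usp2, a deubiquitinase of cyclin D1, fell most in TGF-β CFs (-0.55 and -1.11). Single libraries decided these si-IAMP-1 calls, with Ambra1 not passing without si-IAMP-1 replicate 2 or si-NC replicate 1 or 2 (adjusted p of up to 0.0691), Cul1 without si-IAMP-1 replicate 1 or 2 (up to 0.0701), and Usp2 without si-IAMP-1 replicate 1 or si-NC replicate 2 (up to 0.0777). Of 31 factors known to act upstream of the 10 genes, 10 rose and 10 fell with si-IAMP-1, and 13 rose and 11 fell with si-IAMP-2, in untreated CFs, beside the same shares of all genes. Stat3 rose from 228 to 229 CPM to 302 to 324 and 484 to 508 (0.45 and 1.10), Ets2 rose with IL17 (0.54 and 0.64) and with TGF-β (0.28 and 0.41), and the growth factor response gene Egr1 fell from 91.1 to 96.9 CPM to 38.3 to 42.1 and 32.6 to 35.8 (-1.20 and -1.47). Myc rose by 0.27 and 0.16 in untreated CFs, and with TGF-β it fell with si-IAMP-1 (-0.17) and rose with si-IAMP-2 (0.17). The Myc call with si-IAMP-2 in untreated CFs ended without si-IAMP-2 replicate 1 or 2 or si-NC replicate 3 (adjusted p of up to 0.0917). With TGF-β the Myc calls ended without si-IAMP-1 replicate 1 or 2 or si-NC replicate 1 or 2 for si-IAMP-1 (adjusted p of up to 0.106), and without si-IAMP-2 replicate 1 or 3 or si-NC replicate 3 for si-IAMP-2 (adjusted p of up to 0.0852). Ezh2, the Polycomb methyltransferase known to silence Cdkn2a, fell most with TGF-β (-0.62 and -0.64).

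In hearts none of the 8 measurable members passed between KO and Het, with 0% of the 16675 tested genes passing in edgeR. The log2 differences of the 8 lay between -0.06 and 0.11, their 95% intervals all lay between -0.47 and 0.69, 0 had an unadjusted p under 0.05, and DESeq2 called 0 as well. Cdkn1a was again the highest per kilobase, at 58.8 CPM per kb in Het and 63.5 in KO. Its libraries spread widely, at 154, 197, 250 and 234 CPM in Het and 216, 235, 146 and 306 CPM in KO, and the groups overlapped. Ccnd1 measured 36.5, 42.1, 35.3 and 39.4 CPM in Het and 36.0, 38.3, 40.0 and 34.7 in KO, and Ccnd2 73.9, 62.5, 57.5 and 65.5 against 62.4, 65.9, 65.0 and 70.8. Ccnd3 lay between 56.6 and 71.8 CPM, Cdkn1b between 26.8 and 33.5, Cdkn1c between 14.5 and 18.7, Cdkn2c between 6.56 and 8.73 and Cdkn2d between 8.18 and 11.6, with overlap between the groups for each. Cdkn2b had 2 to 10 counts per heart and Cdkn2a 0 counts in all 8, which allows up to 3 counts in each, and neither was tested. The ratio of D cyclins to inhibitors was 0.272 ± 0.0431 (SD, n = 4) in Het and 0.264 ± 0.0694 in KO. Mki67 measured only 1.40 to 3.55 CPM in Het and 1.72 to 1.89 in KO.

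**Figure D5:**
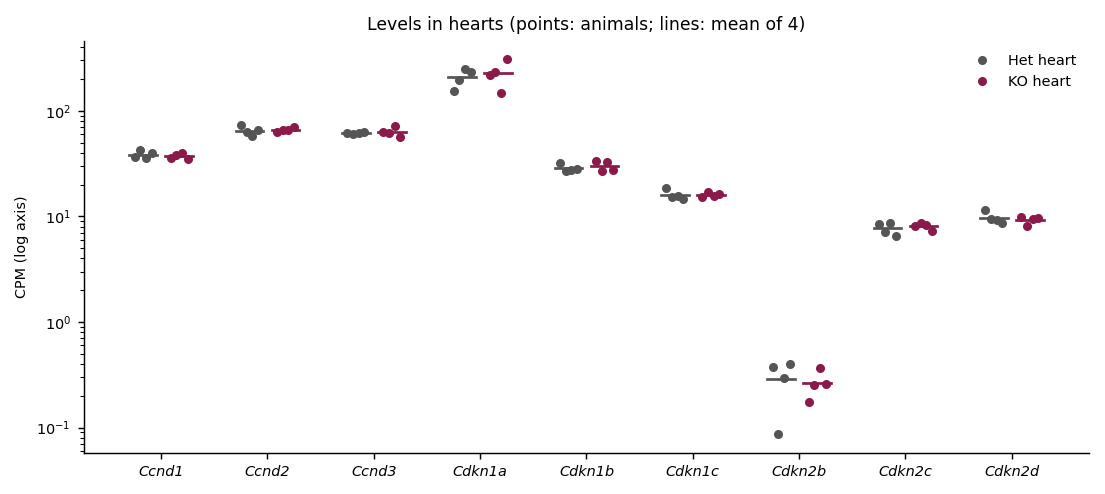
Levels of 9 genes in the 4 Het and 4 KO hearts (CPM, log axis), with 1 point per animal and lines for the mean of 4. The groups overlap for each gene drawn, and Cdkn2a, at 0 counts in all 8 hearts, is not drawn.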

How the data were processed

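RNA was selected with oligo(dT) and sequenced from 27 CF libraries, 3 for each siRNA and stimulus, and 8 hearts. The authors trimmed reads with Cutadapt 3.7, checked them with FastQC 0.11.9, aligned them to GRCm38 with HISAT2 2.2.1 and quantified genes with StringTie 2.1.4. The deposited CF tables hold estimated counts, about 6 for each read pair, and the deposited heart table holds counts. How coverage became whole numbers, and whether strand was used, is not given in the sources used here.

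Genes passing filterByExpr (19669, 19906 and 19891 in the untreated, IL17 and TGF-β tables, 21219 and 21508 in the joint fits and 16675 in hearts) were tested with edgeR 4.0.16 in R 4.3.3 (TMM, quasi-likelihood F test, no replicate block), with Benjamini-Hochberg adjustment over all genes of a fit. Estimated counts were used as deposited, which were whole numbers. Stimuli were compared in joint fits of 2 tables. CPM used TMM factors over all 27 CF libraries, where the plan had named factors within a table, or over the 8 hearts. Exon lengths came from GENCODE vM21. The detection floor was 3 read pairs (18 estimated counts) or 3 counts, which covers counting error only. Levels of the authors' tables were set side by side across tables that were quantified separately.

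The members and lists were chosen with earlier results of these data known. The text names all 10 members, and of each other list, in each CF table, the top riser and the top faller by the mean of both siRNAs, among genes passing in the same direction with both at a mean of at least 1 CPM, where there was one. A gene that led its list in more than 1 CF table is not given with its values for each of them. The text also names Mki67, Cdk6, Cdk2, Trp53, Mdm2, Myc, Skp2, Rb1, E2f1 and 4930523C07Rik where they bear on a result. Cdk4 and Ccne1 were planned by name as well, and their values are not printed. Alternatives were RLE scaling, DESeq2 1.42.0, no filter, at least 10 counts, other fits and thresholds, a replicate block, leaving out each library, and, chosen after seeing the data, estimated counts divided by 6. The tests were checked on simulated independent counts, with larger changes than many reported here. That check did not cover small changes or the steps of the estimated counts. No libraries of a group agreed within sampling noise.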

Additional observations from a re-analysis of the deposited data

Results flagged for a closer look

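The difference between the TGF-β and the untreated siRNA effect passed as an interaction in 11 cases, by edgeR with Benjamini-Hochberg adjustment, which is what brought these genes here. For si-IAMP-1 the log2 interaction was 0.34 for Cdkn1a, 0.32 for Cdkn2b, 0.40 for Cdkn2c, 0.46 for Cdkn2d, 0.83 for Ccnd1 and 0.27 for Ccnd3. For si-IAMP-2 it was 0.52 for Cdkn2b, 0.43 for Cdkn2c, 0.88 for Cdkn2d, 0.98 for Ccnd1 and 0.52 for Ccnd2. Cdkn2b, Cdkn2c, Cdkn2d and Ccnd1 passed with both siRNAs, and all 11 values lie above 0, so each siRNA value was nearer to 0, or above it, in TGF-β CFs. The stimulus and the table cannot be told apart in these values. IAMP was also reduced less by both siRNAs in TGF-β CFs, and the part of this was not tested. No heart stood apart from its group in any of 20 sets of 4 hearts examined, where chance alone would pick out about 1 set in 20.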

How the results depend on the processing

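Over 102 combinations of setting and siRNA comparison, 0 called a member higher. Counts of members called kept within 1.5 times of their value under the other settings, apart from the IL17 interactions, where si-IAMP-1 went from 0 to 1 (Cdkn2b) under DESeq2, at least 10 counts, division by 6 and a fit of all 27 libraries, and si-IAMP-2 from 0 to 2 (Cdkn1a, Cdkn1b) under DESeq2. Counts past the fold threshold moved when the threshold was exchanged between 2-fold and 1.5-fold, from 1 to 3, 2 to 5 and 0 to 1 in untreated CFs (si-IAMP-1, si-IAMP-2, and one against the other), 4 to 1 and 2 to 0 with IL17 (si-IAMP-1, and one siRNA against the other), 2 to 1 with TGF-β and si-IAMP-1, and 1 to 0 and 2 to 0 for the TGF-β interactions. With IL17, the siRNAs against each other went from 2 to 1 under RLE, DESeq2, no filter and a fit of those groups alone, TGF-β with si-IAMP-1 from 2 to 1 under no filter and the replicate block, and IL17 against untreated from 0 to 1 under the block. The Cdkn2b change with TGF-β and si-IAMP-2, 0.00, was -0.003034 under RLE, -0.003025 under DESeq2 and -0.011155 with those groups alone.

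Without each library in turn, members called ranged from 2 to 4 for TGF-β si-IAMP-1 (2 without si-IAMP-1 replicate 3 or si-NC replicate 2), 1 to 4 for TGF-β si-IAMP-2 against si-IAMP-1 (1 without si-IAMP-1 replicate 1 or 2 or si-IAMP-2 replicate 3), 4 to 7 for IL17 against untreated (4 without untreated si-NC replicate 3 or IL17 si-NC replicate 1) and 0 to 1 for the IL17 interaction with si-IAMP-1 (1 without IL17 si-NC replicate 2). Those past the fold threshold ranged from 0 to 2 for IL17 si-IAMP-2 against si-IAMP-1 and 1 to 2 for TGF-β si-IAMP-1. Values near 0 changed sign, Cdkn2b (-0.00857 to 0.111) and Ccnd2 (-0.0112 to 0.0706) with IL17 and si-IAMP-1, Cdkn2a (-0.0876 to 0.00399) with TGF-β and si-IAMP-1, and Cdkn1b (-0.103 to 0.0297) and Cdkn2b (-0.00984 to 0.0118) with TGF-β and si-IAMP-2. In hearts 13 of 64 such values changed sign, with 0 passing. The cause was not tested. No pairing by replicate number was seen, as same-numbered libraries correlated between -0.065 and 0.028 in their deviations over all genes kept. These correlations cannot exclude a shared batch that acts on few genes. The block moved members called from 9 to 10 (IL17 si-IAMP-2), 4 to 3 (TGF-β si-IAMP-1) and 7 to 5 (IL17 against untreated), and no other count in the CFs.

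Depth limits Cdkn1c in the CFs and Cdkn2a and Cdkn2b in the hearts. RNA counts show neither protein nor kinase activity, and the 3 libraries a group leave small changes unresolved.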
